A study of Mus musculus with 18 samples.

Results

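The immunity-related GTPases are interferon-inducible proteins of the mouse innate immune system, and 7 of their genes were followed here across macrophages with 3 forms of the LPS receptor TLR4: Irgm1, Irgm2, Igtp, Iigp1, Ifi47, Tgtp1 and Tgtp2. The members were chosen by gene symbol. Of the 7 genes, 4 had a value under their own Ensembl gene number, of 13598 genes with a value in the series, and 3 of these passed the filter on low values (a level of 1 FPKM or more in 3 or more of 18 libraries), of 9707 genes that passed.

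RNA-seq was made from thioglycollate-elicited peritoneal macrophages of C57BL/6 mice in 6 groups of 3 libraries. The mice were TLR4-WT, TLR4-K730R or TLR4-K810R, the latter pair carrying a CRISPR/Cas9 knock-in that replaces 1 lysine of the intracellular TIR domain by arginine, so that this position can no longer be acetylated. Cells of each genotype were mock-treated or given 100 ng/mL LPS for 6 h. The question was whether the lysines shape the response to LPS, and a point mutation of this kind cannot be checked in expression values. Ages were not given in the labels, and neither was whether the 3 libraries of a group came from separate animals, so the p-values measure the spread between these libraries, which may be technical. Values are FPKM, fragments scaled to feature length and library size. No read counts were used, so the depth behind each value is unknown.

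Immunity-related GTPases guard cells against parasites and bacteria that live inside vacuoles, and their genes are switched on by interferons. In macrophages, LPS acts on them largely through the interferon-β that TLR4 induces by way of TRIF and IRF3. The family has 2 classes, named after residues of the nucleotide-binding loop. GMS proteins sit on the cell's own membranes and hold the effectors in their inactive state, and GKS proteins are effectors that load onto the vacuole of a pathogen. Translated from the GENCODE M21 coding sequences, Irgm1, Irgm2 and Igtp carried GMS, whereas Iigp1, Ifi47, Tgtp1 and Tgtp2 carried GKS, with 407 to 423 residues each. Coding sequences of the GMS members were 66.3% to 72.7% identical to each other. Tgtp1 and Tgtp2 differed at 4 of 1248 bases (99.7% identity), so reads from these copies can hardly be told apart and values of either are uncertain.

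The sequences before the RefSeq starts of 4 members share an arrangement, shown here because it holds the kinds of element through which interferons act. Starts of 6 of the 7 genes were taken from RefSeq (GRCm38.p6), and Iigp1 was not searched. The 250 bases before each start were searched on both strands for the core of the interferon-stimulated response element, GAAANNGAAA, and for the interferon-responsive GAS motif, TTCNNNGAA. Matched bases are in capitals, in the direction of transcription, with 7 bases on either side:
Igtp: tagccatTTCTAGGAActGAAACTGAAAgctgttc
Irgm2: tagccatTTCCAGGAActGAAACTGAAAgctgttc
Tgtp1: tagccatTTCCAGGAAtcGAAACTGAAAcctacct
Tgtp2: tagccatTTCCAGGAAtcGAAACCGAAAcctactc
Irgm1: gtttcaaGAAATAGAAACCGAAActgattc
These stretches lie at chr11:58199504-58199538 (plus strand), chr11:58214895-58214929 (plus), chr11:48992307-48992341 (minus), chr11:49064266-49064300 (minus) and chr11:48871428-48871457 (minus). In Igtp, Irgm2, Tgtp1 and Tgtp2 the GAS match was followed after 2 bases by the response element. Irgm1 had 2 overlapping response elements and no GAS match, and Ifi47 had neither in its window. That Ifi47 window lies before the outer of its first exons. The bases before its inner first exon, which is also described below, were not searched. Of 32851 windows of that length in the table, 2.98% held the response element, 7.02% the GAS motif and 0.332% both. The Tgtp1 stretch lies downstream of both first exons counted for Tgtp1 here (48992710 to 48992890 and 48993972 to 48994172), and the Irgm1 stretch downstream of the outer first exon described below, so neither is upstream of those starts. A match is a description of letters and does not show binding.

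The deposited rows list transcript events, each with a gene number, and at 3 places these numbers join neighbouring members. Rows numbered Irgm2 also held the first exon of Igtp, at 58199556 to 58199779 of chromosome 11, where the annotation lets 1 Irgm2 transcript begin, and a first exon joined to Gm12250, which encodes the related GTPase Irgb10. Rows numbered Tgtp2 held the events of Tgtp1 and of the relatives Gm5431, Gm12185 and 9930111J21Rik1, and the events of Ifi47 stood under the olfactory receptor gene Olfr56. By the gene numbers, Igtp, Ifi47 and Tgtp1 therefore had no value, and the value of Irgm2 was a sum of 2 genes. A second assignment, added after this was seen, gave each first or last exon to the gene whose annotated exon it matched. It gave values for 7 members, 6 of which passed the filter, and is used below for Irgm2, Igtp, Ifi47 and Tgtp1. Values of Irgm1 and Iigp1 were the same in both.

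The labelled cell type was borne out by 6 of 7 macrophage markers, with Itgam listed at 0. Their summed level was lower with LPS in each genotype, at 11600 to 14800 FPKM in mock libraries and 7290 to 10100 in LPS libraries. Ifng, Klrb1c, Ncr1, Nkg7 and Prf1, of 11 markers of T and NK cells, were listed in no library. The sum of the others was 0.0172 to 1.25 FPKM in TLR4-WT mock and 0 to 0.772 in TLR4-WT LPS. It was 0 to 0.274 and 0 to 0.958 in TLR4-K730R mock and LPS, and 0 throughout in TLR4-K810R. The sum of intestinal epithelium genes (10 of 10 listed) was higher in either mutant than in TLR4-WT without LPS. With LPS it was higher in TLR4-K730R, whereas TLR4-K810R overlapped TLR4-WT. It was 0.118 to 0.67 FPKM in TLR4-WT mock, with 2 of the 10 genes above 0, and 0.0928 to 15.2 in TLR4-WT LPS. In mock and LPS it was 44.1 to 71.4 and 51.7 to 59.3 for TLR4-K730R, and 55.1 to 119 and 0.127 to 20.4 for TLR4-K810R. Genes of mesothelium and fibroblasts (7 of 7) summed to 26.7 to 41.7 and 38.7 to 122 FPKM in TLR4-WT mock and LPS. Their sums were 50.5 to 58.5 and 43.0 to 43.6 for TLR4-K730R, and 99.5 to 228 and 91.5 to 109 for TLR4-K810R. The summed level of neutrophil markers (7 of 7 listed) rose with LPS. It was 31.4 to 45.0 FPKM in TLR4-WT mock, 46.2 to 52.4 in TLR4-K730R mock and 53.2 to 62.9 in TLR4-K810R mock. In LPS libraries it was 186 to 253. Of the 7 markers, 4 were above 0 in TLR4-WT mock and 4 in TLR4-WT LPS. Dendritic cell markers (3 of 6 listed, with Flt3, Siglech and Xcr1 at 0) summed to 0 to 1.96 FPKM in mock libraries and 3.03 to 5.76 in LPS libraries. The part of these markers in the results on the GTPases was not tested, and in bulk RNA fewer expressing cells and less RNA per cell cannot be told apart.

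**Figure D1:**
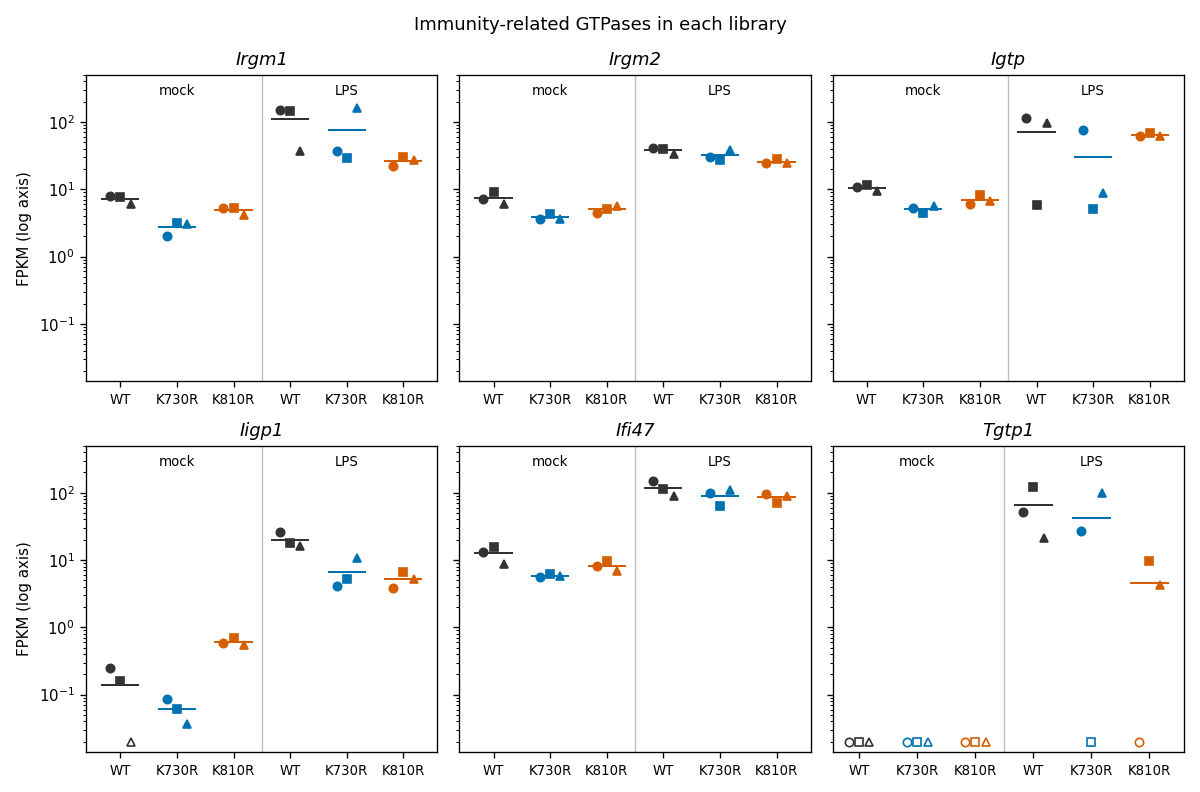
FPKM of 6 members in each library on a log axis, by genotype and treatment, with events assigned by exon ends; circles, squares and triangles are replicates 1, 2 and 3, lines are group means of 3 libraries, and open symbols at the bottom mark libraries listed at 0. After LPS, Irgm1, Igtp and Tgtp1 spread widely in TLR4-WT and TLR4-K730R, as in Igtp of TLR4-WT, which runs from 5.78 to 113 FPKM, whereas Igtp of TLR4-K810R lies between 61.0 and 68.4.

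LPS raised members of both classes in each genotype. By gene number, Iigp1, Irgm1 and Irgm2 were higher after LPS in TLR4-WT, TLR4-K730R and TLR4-K810R (3 of 3 tested at an adjusted p below 0.01 by limma), where 10.4%, 9.32% and 9.08% of the 9707 genes were called higher. With events assigned by exon ends, 5 of 6 tested members were called higher in TLR4-WT and 4 of 6 in either mutant, against 10.5%, 9.42% and 9.14% of 10371 genes. Iigp1 and Tgtp1 passed the filter on low values only through LPS libraries, so a difference was built into their tests. Across the 9707 genes the median difference after LPS was -0.28, -0.36 and -0.26 on the log2(FPKM + 1) scale, a scale that understates the change of low genes. The median over the 3 members was 3.51, 2.76 and 2.23.

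Irgm1 (chromosome 11, 48861968 to 48871683, minus strand) is the GMS regulator best known for its part in resistance to mycobacteria and in autophagy. Its FPKM were 8.03, 7.67 and 6.08 in TLR4-WT mock, 2, 3.17 and 3.07 in TLR4-K730R mock and 5.25, 5.22 and 4.07 in TLR4-K810R mock. After LPS they were 149, 145 and 36.5 in TLR4-WT, 36.4, 28.9 and 159 in TLR4-K730R, with 22.1, 30.2 and 27.2 in TLR4-K810R. Mock and LPS libraries did not overlap in any genotype, but 3 LPS libraries stood far above the other 6. The rise in TLR4-WT, TLR4-K730R and TLR4-K810R was 3.51, 3.93 and 2.23, with an SE of 0.53 each (log2 scale, n = 3, limma adjusted p = 5.62e-05, 1.73e-05 and 0.00327). The call in TLR4-K810R was lost with a pseudocount of 5 and on leaving out mock replicate 3 or LPS replicate 2 or 3 of that genotype (adjusted p = 0.0117 to 0.0140).

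The events of the Irgm1 locus separated these libraries. In TLR4-WT LPS replicates 1 and 2 and TLR4-K730R LPS replicate 3, a first exon at 48872174 to 48872521, outside the annotated gene, was listed at 94.8, 98.1 and 115 FPKM, together with skipping of the exon at 48868562 to 48868780. It was listed in none of the other 15 libraries. The transcripts that include this internal exon had a smaller spread: 54.2, 46.7 and 36.5 FPKM in TLR4-WT LPS, 36.4, 28.9 and 44.2 in TLR4-K730R LPS, and 22.1, 30.2 and 27.2 in TLR4-K810R LPS. In a fit of 64176 single events, added after the data were seen, this included form rose by 2.49, 3.32 and 2.23 (SE 0.20 each, adjusted p = 2.68e-07, 1.17e-08 and 9.58e-07), where 5.95%, 5.61% and 5.05% of events were called higher. The TLR4-K810R libraries lay below all 3 TLR4-WT libraries in this form, at -0.76 ± 0.20 with an adjusted p of 0.121.

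**Figure D2:**
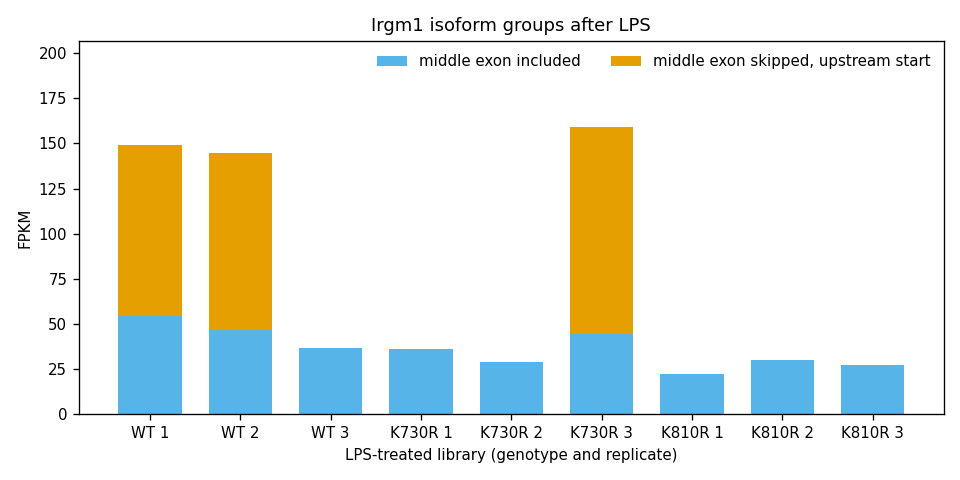
FPKM of the 2 Irgm1 forms in the 9 LPS-treated libraries, as stacked bars: transcripts that include the internal exon and transcripts that skip it and begin upstream. The skipping form fills 94.8 to 115 FPKM of 3 bars and is absent from the other 6, whereas the including form stays between 22.1 and 54.2 FPKM.

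Irgm2 and Igtp are the other GMS regulators, and lie beside each other on chromosome 11 (58199618 to 58222782 and 58199556 to 58207591, plus strand). By its own first exon, Irgm2 was at 7.12, 9.21 and 6.07 FPKM in TLR4-WT mock, 3.55, 4.28 and 3.59 in TLR4-K730R mock and 4.43, 5.03 and 5.72 in TLR4-K810R mock. After LPS it was at 40.3, 39.0 and 33.4 in TLR4-WT, 30.4, 27.3 and 37.8 in TLR4-K730R, with 24.6, 27.9 and 24.8 in TLR4-K810R. Its replicates were among the tightest of the family and mock and LPS did not overlap. Irgm2 rose by 2.20 ± 0.15, 2.76 ± 0.15 and 2.15 ± 0.15 on the log2 scale (SE, n = 3, adjusted p = 9.87e-09, 6.37e-10 and 1.37e-08). By gene number, with the Igtp exon mixed in, the same libraries read 154, 44.8 and 128 FPKM in TLR4-WT LPS, 107, 32.3 and 46.5 in TLR4-K730R LPS and 86.2, 96.2 and 85.8 in TLR4-K810R LPS, a spread that came from the Igtp exon.

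Igtp, also called Irgm3, was at 10.7, 11.4 and 9.50 FPKM in TLR4-WT mock, 5.32, 4.43 and 5.56 in TLR4-K730R mock and 6.08, 8.11 and 6.65 in TLR4-K810R mock. In LPS-treated cells its first exon was at 113, 5.78 and 95 in TLR4-WT, 76.6, 5 and 8.65 in TLR4-K730R, against 61.6, 68.4 and 61.0 in TLR4-K810R. Of 9 LPS libraries, 6 were thus far above mock, and 3 were at 5.78, 5 and 8.65 FPKM, no higher than TLR4-WT mock. Of these 3, only the 8.65 of TLR4-K730R was above every mock library of its own genotype (4.43 to 5.56). In those 3, TLR4-WT replicate 2 and TLR4-K730R replicates 2 and 3, the neighbouring Gm12250 first exon read 147, 90.9 and 158 FPKM, against 36.1 to 62.5 in the other 6.

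The sum of the Igtp and Gm12250 first exons was 172, 153 and 157 FPKM in TLR4-WT LPS, 113, 95.9 and 167 in TLR4-K730R LPS and 111, 125 and 112 in TLR4-K810R LPS, against 5.94 to 19.8 in the 9 mock libraries. Igtp made up 54.4% to 68.0% of that sum in 6 LPS libraries and 3.79% to 5.21% in the other 3. The last exon of Gm12250 was at 45.1, 29.2 and 66.0 FPKM in those 3 libraries and at 31.2 to 62.5 in the other 6. How the program that made the rows divided these transcripts was not tested. The rise of Igtp was called in no genotype: 1.87 ± 0.90, 1.44 ± 0.90 and 3.03 ± 0.90 (SE, n = 3, adjusted p = 0.0993, 0.197 and 0.0133). Without TLR4-WT LPS replicate 2 it was 3.19 in TLR4-WT with an adjusted p of 0.00179. In TLR4-K810R, where mock and LPS libraries did not overlap, it passed under median-of-ratios scaling (0.00906) and with only the groups compared (1.56e-05).

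**Figure D3:**
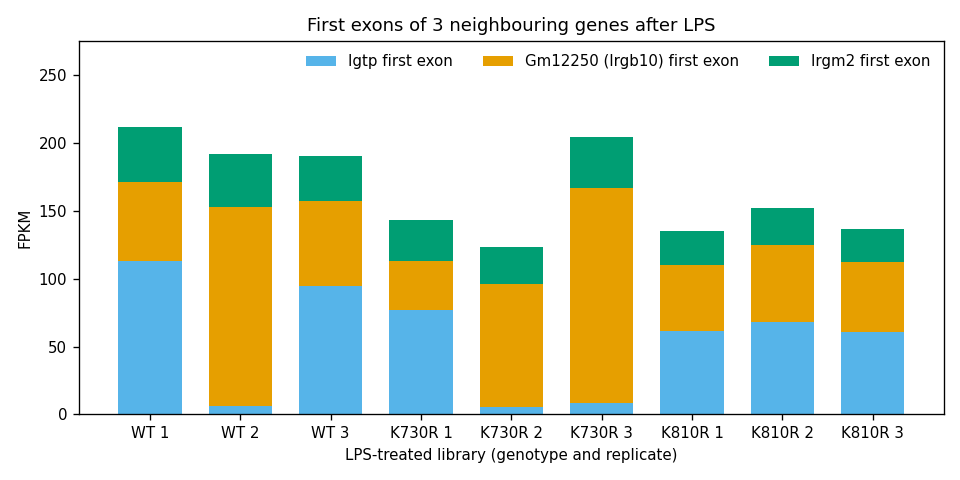
FPKM of the first exons of Igtp, Gm12250 and Irgm2 in the 9 LPS-treated libraries, as stacked bars. In 3 libraries the Igtp part shrinks to between 5 and 8.65 FPKM while the Gm12250 part grows to between 90.9 and 158, and the Irgm2 part stays between 24.6 and 40.3.

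Iigp1, also called Irga6, is the GKS effector most studied on the vacuole of Toxoplasma and lies at 60376027 to 60392634 of chromosome 18, plus strand. It was nearly silent without LPS: 0.251, 0.162 and 0 FPKM in TLR4-WT, 0.0852, 0.0621 and 0.0372 in TLR4-K730R, with slightly higher values of 0.575, 0.699 and 0.539 in TLR4-K810R. LPS-treated cells had 25.8, 17.7 and 16.2 FPKM in TLR4-WT, against 4.11, 5.26 and 10.6 in TLR4-K730R, with 3.86, 6.57 and 5.26 in TLR4-K810R. Each LPS library of a mutant lay below each LPS library of TLR4-WT. The rise in TLR4-WT, TLR4-K730R and TLR4-K810R was 4.18, 2.76 and 1.94, with an SE of 0.25 each (log2 scale, n = 3, adjusted p = 2.24e-09, 2.37e-07 and 1.5e-05). Among single events, the outer first exon was called higher after LPS in the 3 genotypes. The inner one was called in TLR4-WT and TLR4-K730R and missed the threshold in TLR4-K810R (0.99 ± 0.27 SE, limma adjusted p = 0.0147). Either exon was below 1 FPKM in every mock library and passed the filter only through LPS libraries, so a rise was built into these tests. These calls do not show a difference between genotypes. The outer one was at 13.3 to 18.4 FPKM in TLR4-WT LPS and at 2.59 to 8.26 in the mutants, and the inner one made up 18% to 28.7%, 22.3% to 28.9% and 11% to 33.1% of the first-exon sum in the 3 genotypes.

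Ifi47, also called Irgd, is a GKS member (chromosome 11, 49076587 to 49096974, plus strand). Its FPKM were 13.3, 15.5 and 8.83 in TLR4-WT mock, 5.61, 6.15 and 5.79 in TLR4-K730R mock and 8.03, 9.67 and 6.84 in TLR4-K810R mock, and 148, 115 and 87.9, 97.3, 62.4 and 110, and 95.2, 69.7 and 90.0 in the same order after LPS. It had the highest mean of the members in each of the 6 groups, but its LPS libraries overlapped those of Irgm1, Igtp and Tgtp1 in TLR4-WT and TLR4-K730R. Ifi47 rose by 3.12 ± 0.24, 3.69 ± 0.24 and 3.23 ± 0.24 (SE, n = 3, adjusted p = 2.95e-08, 3.94e-09 and 2.13e-08). The choice between its first exons varied among replicates of 1 group: the outer one took 87.4%, 35.8% and 47.7% of the outer and inner sum in TLR4-WT LPS and 94.9%, 12.7% and 25.8% in TLR4-K730R LPS. The junction that both starts share was steadier and was called in each genotype (2.93, 3.60 and 3.10, SE 0.24 each).

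Tgtp1 and Tgtp2, the near-identical genes of Irgb6 (chromosome 11, 48985327 to 48994172 and 49057194 to 49064206, minus strand), are GKS members whose values are uncertain. Tgtp1 was listed at 0 in the 9 mock libraries. After LPS it was listed at 52.4, 121 and 21.4 FPKM in TLR4-WT, 26.9, 0 and 100 in TLR4-K730R, with 0, 9.57 and 4.27 in TLR4-K810R. The rise from 0 was called in TLR4-WT (adjusted p = 0.00103) and not in TLR4-K730R (0.0154; 4.21e-05 without replicate 2) or TLR4-K810R (0.217). Much of the highest values came from last exons seen in 1 library each. The annotated last exon, at 48985327 to 48987894, was at 19.0, 26.1 and 21.4 FPKM in TLR4-WT LPS, 26.9, 0 and 2.88 in TLR4-K730R LPS and 0, 0 and 4.27 in TLR4-K810R LPS. Tgtp2 was listed in 1 library, TLR4-K730R LPS replicate 2, at 12.3 FPKM, which is the library of its group where Tgtp1 was at 0, and it did not pass the filter. With LPS, Tgtp1 of the TLR4-K810R libraries lay below that of the TLR4-WT libraries, with an adjusted p of 0.0978.

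Per length, the order of group means in mock cells was Ifi47, Igtp, Irgm2, Irgm1 and Iigp1, from high to low, in each genotype, with Tgtp1 and Tgtp2 at 0. Neighbours overlapped in TLR4-WT: Ifi47 (8.83 to 15.5 FPKM) with Igtp (9.50 to 11.4), and Irgm2 (6.07 to 9.21) with Irgm1 (6.08 to 8.03). The same pairs overlapped in TLR4-K810R, at 6.84 to 9.67 with 6.08 to 8.11 and at 4.43 to 5.72 with 4.07 to 5.25. Iigp1 lay below the other listed members in every mock library. After LPS, Iigp1 (3.86 to 25.8 FPKM over the 3 genotypes) still lay below Irgm2 (24.6 to 40.3) and Ifi47 (62.4 to 148) of its own library.

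Without LPS, the members that were expressed tended to be lower in the mutants than in TLR4-WT, and none passed the test. Mast cell markers (5 of 5 listed) moved the same way, with sums of 4.7 to 5.25 FPKM in TLR4-WT mock, 0.494 to 2.58 in TLR4-K730R mock and 0.797 to 2.64 in TLR4-K810R mock. B cell markers (5 of 6 listed, Pax5 at 0) were at 2.3 to 3.83 FPKM in TLR4-WT mock and lower in TLR4-K730R mock (1.61 to 2.28), whereas TLR4-K810R mock overlapped (1.65 to 3.25). Intestinal, neutrophil, and mesothelial and fibroblast markers moved the other way and did not overlap between either mutant and TLR4-WT. The part of these cells was not tested. Mean levels of Irgm1, Irgm2, Igtp and Ifi47 were 7.26, 7.46, 10.5 and 12.5 FPKM in TLR4-WT, 2.75, 3.81, 5.10 and 5.85 in TLR4-K730R, with 4.84, 5.06, 6.95 and 8.18 in TLR4-K810R (n = 3 each). For each of these 4 genes the 3 TLR4-K730R libraries lay below the 3 TLR4-WT libraries, and so did TLR4-K810R except for Ifi47, whose ranges overlapped. Iigp1 was an exception, since TLR4-K810R (0.539 to 0.699 FPKM) lay above TLR4-WT (0 to 0.251), all below 1 FPKM. The share of all genes whose libraries separate in this way was not counted, so these separations are only a description.

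By gene number, limma called 0 of 3 members in TLR4-K730R against TLR4-WT (0.268% of genes called; 2 of 3 at an unadjusted p below 0.05) and 0 of 3 in TLR4-K810R (1.58%; 0 of 3). Of all genes, 7.70% and 14.1% had an unadjusted p below 0.05 in these comparisons. By exon ends it called 0 of 6 in either (0.280% and 1.51%; 3 of 6 and 2 of 6 unadjusted, beside 7.68% and 13.8% of all genes). Irgm2 came nearest, at -0.80 ± 0.15 (95% limits -1.12 and -0.48, adjusted p = 0.0207, or 0.0027 under array weights) in TLR4-K730R and -0.47 ± 0.15 (0.123) in TLR4-K810R. Ifi47 differed by -0.95 ± 0.24 (0.119) and -0.54 ± 0.24 (0.318), Irgm1 by -1.15 ± 0.53 (0.635) and -0.50 ± 0.53 (0.762), and Igtp by -0.92 ± 0.90 (0.900) and -0.54 ± 0.90 (0.862). The Irgm1 form with the internal exon, with a smaller error, was at -1.15 ± 0.20 in TLR4-K730R (adjusted p = 0.0245), where 0.0686% of single events were called, and at -0.50 ± 0.20 (0.388) in TLR4-K810R, where 0.327% were. The median of all genes was 0.03 and 0.07.

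**Figure D4:**
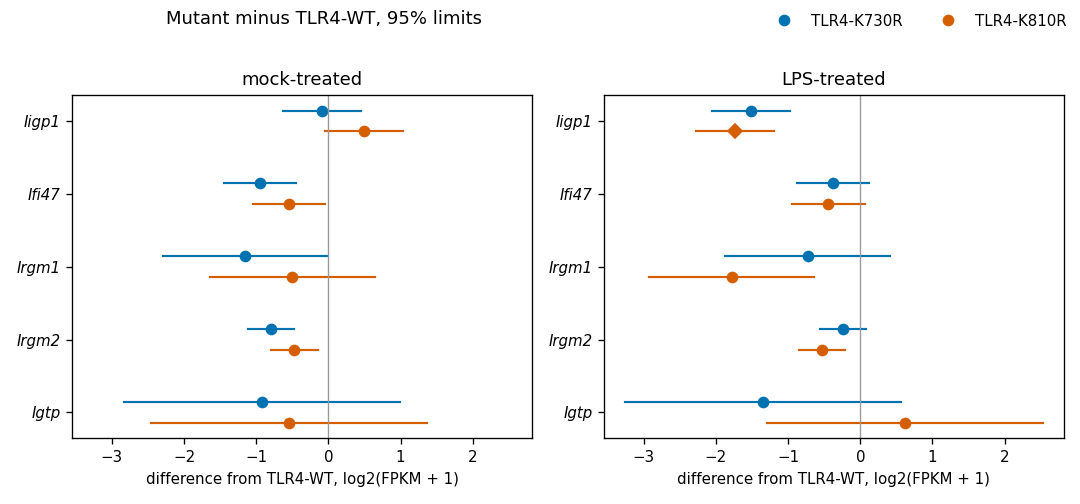
Difference of each mutant from TLR4-WT on the log2(FPKM + 1) scale for 5 members, mock-treated on the left and LPS-treated on the right, with events assigned by exon ends; points are fitted differences of 3 against 3 libraries, lines are 95% limits, and a diamond marks an adjusted p below 0.01. Most points lie left of 0, and the diamond is Iigp1 in TLR4-K810R after LPS, at -1.74.

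After LPS, Iigp1 was the 1 member called between a mutant and TLR4-WT. Its mean was 19.9 ± 5.12 FPKM (SD, n = 3) in TLR4-WT, against 6.67 ± 3.48 in TLR4-K730R and 5.23 ± 1.35 in TLR4-K810R. The difference was -1.74 ± 0.25 (SE, log2 scale, adjusted p = 0.00560) in TLR4-K810R, which passed, and -1.51 ± 0.25 (0.0753) in TLR4-K730R, which did not. Irgm2 and Ifi47 did not pass, with differences of -0.24 ± 0.15 (0.731) and -0.38 ± 0.24 (0.729) in TLR4-K730R, then -0.53 ± 0.15 (0.0721) and -0.44 ± 0.24 (0.299) in TLR4-K810R. The 95% limits of Irgm2 in TLR4-K810R, -0.85 and -0.21, both lay below 0, and its libraries did not overlap those of TLR4-WT. The other 3 intervals, -0.56 to 0.08 and -0.88 to 0.12 in TLR4-K730R and -0.94 to 0.07 in TLR4-K810R, held 0.

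Limma called 0 of 3 members in TLR4-K730R with LPS (0% of 9707 genes; 1 of 3 at an unadjusted p below 0.05) and 1 of 3 in TLR4-K810R (0.134%; 2 of 3). Of all genes, 7.69% and 21.8% had an unadjusted p below 0.05. By exon ends it called 0 of 6 (0% of 10371; 1 of 6 unadjusted, beside 7.67% of all genes) and 1 of 6 (0.135%; 4 of 6 unadjusted, beside 21.6%), which was Iigp1 again. Irgm1 differed by -1.78 ± 0.53 in TLR4-K810R (adjusted p = 0.0801) and its libraries did not overlap, but 2 of the 3 TLR4-WT libraries held the upstream form that no TLR4-K810R library had. Igtp differed by -1.35 ± 0.90 (0.751) and 0.62 ± 0.90 (0.735), and the second of these turned to -0.70 without TLR4-WT replicate 2, the library with the low Igtp exon. Among single events, the direct join of the outer first exon to the last exon of Iigp1, which skips the exons between, was lower in TLR4-K810R, at -1.79 ± 0.24 (adjusted p = 0.00683; 0.0592% of events called), and at -1.54 ± 0.24 (0.0697; 0.0140%) in TLR4-K730R. Its last exon (-1.74, 0.0143), outer first exon (-1.67, 0.0257) and inner first exon (-1.43, 0.0418) did not pass in TLR4-K810R.

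The call on Iigp1 was close to the threshold. It was lost on leaving out any 1 of TLR4-WT LPS replicates 1 and 2 and the 3 TLR4-K810R LPS replicates (adjusted p = 0.0109 to 0.0360), while the difference stayed between -1.89 and -1.55. It was also lost when only the groups compared entered the fit (0.125), with a pseudocount of 0.1 (0.0390), with no filter (0.0112) and with a replicate block (0.0198). Over the alternatives its adjusted p ran from 0.000584 to 0.125. In TLR4-K730R, leaving out LPS replicate 3, which had the highest Iigp1 of its group, gave -1.86 with an adjusted p of 0.00349, in a range of 0.00349 to 0.836 over the alternatives. Intestinal epithelial genes, which were high in TLR4-K730R with and without LPS, were at 0.127 to 20.4 FPKM in TLR4-K810R LPS and 0.0928 to 15.2 in TLR4-WT LPS. B cell markers moved with Iigp1, at 0.866 to 3.14 FPKM in TLR4-WT LPS against 0.528 to 2.18 for TLR4-K730R and 0.0687 to 0.919 for TLR4-K810R. So did mast cell markers, at 1.47 to 4.61 FPKM against 0.504 to 2.51 and 0.672 to 2.09, and both lists overlapped between the genotypes. Their part was not tested.

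The LPS response itself was compared by the interaction of genotype and treatment. Iigp1 rose less in TLR4-K810R than in TLR4-WT by 2.24 ± 0.36 (SE) on the log2 scale, 95% limits -3.01 and -1.48, with an adjusted p of 0.0102 by gene number, which missed the threshold, and 0.00937 by exon ends, which passed it. Over the alternatives the interaction ran from -3.65 to -1.40 and its adjusted p from 0.00159 to 0.0309. Part of its size came from mock values below 1 FPKM, where TLR4-K810R lay above TLR4-WT by 0.50 ± 0.25 (SE, limma adjusted p = 0.401). In TLR4-K730R the interaction was -1.42 ± 0.36 (adjusted p = 0.322). Of the members, 0 of 3 were called by gene number in TLR4-K730R (0.0412% of genes; 1 of 3 at an unadjusted p below 0.05) and 0 of 3 in TLR4-K810R (0.124%; 1 of 3), beside 7.02% and 13.2% of all genes at an unadjusted p below 0.05. By exon ends it was 0 of 6 (0.0482%; 2 of 6) and 1 of 6 (0.154%; 2 of 6), beside 6.95% and 13.0%. Between the mutants, 0 of 3 members were called in TLR4-K810R against TLR4-K730R by gene number, without LPS (0.0824%; 1 of 3 unadjusted, beside 10.4% of all genes) or with LPS (0.0618%; 0 of 3 unadjusted, beside 18.8%).

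Genes that work with the GTPases were counted from lists written from general knowledge with earlier results of these data known, so the counts are a description. Guanylate-binding proteins, large GTPases that attack the same vacuoles, had 4 of 11 listed genes tested by gene number. After LPS, 4 of 4 rose in each genotype, where 10.4%, 9.32% and 9.08% of all genes did, with medians of 4.73, 5.50 and 4.57. With LPS, limma called 0 of 4 in TLR4-K730R (1 at an unadjusted p below 0.05, beside 7.69% of all genes), and 1 of 4 was lower in TLR4-K810R (0.0824% of all genes), where the median was -0.71 beside 0.11 for all genes. The gene was Gbp4, at 32.9 ± 7.98 FPKM (SD, n = 3) in TLR4-WT LPS, 21.7 ± 8.81 in TLR4-K730R LPS and 8.81 ± 1.5 in TLR4-K810R LPS (-1.77 ± 0.25 SE, adjusted p = 0.00506). Gbp5 and Gbp2 differed there by -0.81 ± 0.22 (0.0604) and -0.61 ± 0.20 (0.101).

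Of 18 genes of the type I interferon response, listed and tested, 8 were lower in TLR4-K730R mock and 13 in TLR4-K810R mock than in TLR4-WT mock, beside 0.216% and 0.649% of all genes, with medians of -1.55 and -2.01. Irf7, the transcription factor that amplifies interferon production, was at 110 ± 33.0 FPKM (SD, n = 3) in TLR4-WT mock, 14.8 ± 12.1 in TLR4-K730R mock and 15.2 ± 2.75 in TLR4-K810R mock. Ifit3, an antiviral RNA-response protein, was at 32.9 ± 2.55, 6.41 ± 0.700 and 3.89 ± 0.288. After LPS, 16, 17 and 17 of 18 rose in the 3 genotypes and 0 of 18 were called by limma between either mutant and TLR4-WT (4 and 13 at an unadjusted p below 0.05, beside 7.69% and 21.8% of all genes), with medians of -0.28 and -0.70. By the interaction, 3 of 18 were called higher and 0 lower in TLR4-K730R (0.0412% of all genes higher) and in TLR4-K810R (0.103%). These were Oas3, Ifit3 and Zbp1, which rose more in TLR4-K810R, by 2.39, 2.17 and 1.39, and in TLR4-K730R, by 2.11, 1.99 and 1.65.

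Among interferon receptors and JAK-STAT genes, 9, 8 and 8 of 14 tested (18 listed) rose after LPS and 1, 2 and 1 fell, where 10.4%, 9.32% and 9.08% of all genes rose and 23.9%, 26.5% and 19.7% fell. Usp18, Irf7 and Jak2 rose in TLR4-WT by 3.52, 2.95 and 2.94. With LPS, limma called 0 of 14 between a mutant and TLR4-WT (for TLR4-K730R 0 and for TLR4-K810R 4 at an unadjusted p below 0.05, beside 7.69% and 21.8% of all genes). Without LPS 2 of 14 were lower in either mutant, beside 0.216% and 0.649% of all genes: Irf7 and Usp18, which are also among the 18 genes above. Of 12 tested genes associated with interferon-γ (15 listed), 8, 8 and 7 rose after LPS and 1 fell in each genotype, beside the same shares of all genes, led in TLR4-WT by the chemokine gene Cxcl9 at 3.29 ± 0.43 and Cd274 at 3.18 ± 0.12. Without LPS, limma called 0 of 12 in TLR4-K730R (2 at an unadjusted p below 0.05, beside 7.70% of all genes) and 1 of 12 lower in TLR4-K810R (Icam1, -0.60 ± 0.10, adjusted p = 0.00228), beside 0.649% of all genes. With LPS it called 0 of 12 in either (1 and 5 unadjusted, beside 7.69% and 21.8% of all genes).

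Of 11 tested autophagy conjugation and ubiquitin genes (13 listed), 1, 1 and 2 rose and 4 fell in each genotype after LPS. Of all genes, 10.4%, 9.32% and 9.08% rose and 23.9%, 26.5% and 19.7% fell. The medians of -0.35, -0.40 and -0.23 were near those of all genes. Atg7, a conjugation enzyme, fell from 42.4 ± 4.51 to 12.7 ± 3 FPKM (SD, n = 3) in TLR4-WT, and the ubiquitin ligase gene Trim21 rose from 4.59 ± 0.238 to 21.3 ± 3.08. Between a mutant and TLR4-WT limma called 0 of the 11 with or without LPS, and 2 in TLR4-K810R LPS had an unadjusted p below 0.05, beside 21.8% of all genes. Of 10 further immunity-related GTPase genes, 2 were tested by gene number. Gm4951 rose by 2.40, 2.25 and 1.14 (SE 0.28 each, adjusted p = 3.78e-06, 7.36e-06 and 0.00398), and Irgq, at -0.50, -0.36 and -0.48 (SE 0.15 each), did not pass (0.0117, 0.0553 and 0.0160). By exon ends 7 were tested, and 3, 4 and 3 rose and 0 fell, beside 10.5%, 9.42% and 9.14% of all genes that rose. Between a mutant and TLR4-WT limma called 0 of these 7 without LPS (2 and 2 at an unadjusted p below 0.05, beside 7.68% and 13.8% of all genes) or with LPS (1 and 1, beside 7.67% and 21.6%).

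The genes whose pattern over the 18 libraries was most like the mean of Iigp1, Irgm1 and Irgm2 (by gene number, each centred) were Ctsc, Il18, Cd47, Nmi, Ifi44, Plpp3, Gbp4, Pxk, Clic4 and A330040F15Rik, with a Pearson r of 0.990 to 0.978. The LPS difference, which the libraries share, carries most of such a correlation, so it is given as a description. Ctsc, the cathepsin C gene, was at 83.8, 70.6 and 78.1 FPKM in TLR4-WT, TLR4-K730R and TLR4-K810R mock and at 253, 202 and 192 after LPS. Il18, the gene of an inflammasome cytokine, was at 2.55, 1.70 and 2.30 and at 24.5, 19.5 and 13.2. With Irgm2, Ifi47 and Igtp taken by exon ends, Ctsc was again first, at 0.986, followed by Plpp3 and Nmi.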

How the data were processed

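RNA was isolated by the authors with a column kit and sequenced on an Illumina platform by a service provider. The authors deposited FPKM per transcript event for each of the 18 libraries, scaled for length and library size. The aligner and the program that made the events are not given in the sources used here. Per the labels the processing notes name the human build hg18, whereas the coordinates are those of mouse GRCm38: of 14138 gene numbers, 14126 were in GENCODE M21.

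First-exon and last-exon FPKM in the span and on the strand of a gene were summed apart, and the larger sum was its value. This left out 6.24% of that FPKM. The second assignment moved 4.87% to another gene than that of the row. Genes that reached 1 FPKM in 3 or more libraries were tested with limma 3.58.1 (R 4.3.3) on log2(FPKM + 1), with 6 groups in 1 fit, a variance trend on intensity, and p-values adjusted by Benjamini-Hochberg across the table. A call is an adjusted p below 0.01. The script was tested on simulated data. All 7 members are named, with the called genes of each list that differed most (at most 4) and the 10 genes most alike. A result that the rule would name is not reported here. The members and lists were chosen with earlier results of these data known. Values were computed with Python 3.11.15, pandas 2.3.3 and Biopython 1.88. Alternatives covered the pseudocount, filter, scaling, weights, groups in the fit, exon choice and left-out libraries.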

Additional observations from a re-analysis of the deposited data

Results flagged for a closer look

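The LPS response of Iigp1 differed between TLR4-K810R and TLR4-WT by the interaction term when events were assigned by exon ends, at -2.24 on the log2(FPKM + 1) scale (limma adjusted p = 0.00937). By gene number the size was the same and the adjusted p was 0.0102, in a range of 0.00159 to 0.0309 over the alternatives, with sizes from -3.65 to -1.40. The mock values of Iigp1 that enter this term were all below 1 FPKM. Single outlying libraries were not tested for in these groups of 3.

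Signal also appeared in first and last exons that did not themselves enter a gene value. The first exon upstream of Irgm1, at 48872174 to 48872521, reached 115 FPKM in an LPS library and was listed at 0 in the 9 mock libraries. The Irgm1 value came from its last exon, at 149, 145 and 159 FPKM in the 3 libraries with this first exon. That value therefore already held these transcripts. The first exon joined to Gm12250, at 58183802 to 58184084, reached 158 FPKM after LPS against at most 8.91 without. A shorter last exon of Gm12250, at 58188238 to 58192385, reached 13.3 FPKM after LPS.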

How the results depend on the processing

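Directions and calls of the LPS rise held for Iigp1, Irgm2 and Ifi47 in each genotype under the alternatives run. Over the member results, 823 alternatives kept direction and side of the threshold, 13 lost a call, 15 gained one and 4 turned in sign.

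The count of members called after LPS in TLR4-WT was 3 and became 5 by exon ends. In TLR4-K730R against TLR4-WT it was 0 and became 1 without LPS when every event row of a gene number was summed, and 1 with LPS under array weights; leaving out libraries with LPS gave 0 to 1. In TLR4-K810R against TLR4-WT with LPS it was 1 and became 0 with a pseudocount of 0.1, 0 without a filter, 0 when only the groups compared entered the fit, 0 with a replicate block and 2 under array weights; leaving out libraries gave 0 to 2, and the 2 came without TLR4-WT LPS replicate 3, when Irgm1 passed as well. For the interaction in TLR4-K810R it was 0 and became 1 at an adjusted p below 0.05, under array weights, with only the groups compared, from last exons only, from every event row and by exon ends. The cause was not tested.

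Signs turned for 3 results on leaving out 1 library. The difference of TLR4-K810R from TLR4-WT with LPS went from -0.10 to between -0.65 and 0.23 for Irgm2 by gene number, and from 0.62 to between -0.70 and 1.34 for Igtp. That of Tgtp1 in TLR4-K730R went from -1.90 to between -3.32 and 0.01, the latter without TLR4-K730R LPS replicate 2. The LPS rise of Irgm1 in TLR4-K810R lost its call with a pseudocount of 5 and without TLR4-K810R mock replicate 3 or LPS replicate 2 or 3 (adjusted p = 0.0117 to 0.0140).

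Libraries of the same number did not deviate together (45 pairs, r from -0.32 to 0.10), so the numbers do not pair them. With the replicate block, the difference of Iigp1 in TLR4-K810R with LPS stayed at -1.74 and its adjusted p was 0.0198. The FPKM carry no counts, so counting error is unknown and the limit set by depth could not be given.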
